A study of Mus musculus with 12 samples.

Results

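Oxidative phosphorylation subunit genes were examined in activated B cells from the spleens of control mice and of mice lacking Pdap1 in B cells. The members were protein-coding genes chosen by symbol (the Ndufa, Ndufb, Ndufc, Ndufs and Ndufv series, Sdha to Sdhd, Uqcr genes, Cyc1, the Cox4 to Cox8 series, Atp5 genes and the mt-Nd, mt-Co, mt-Atp and mt-Cytb genes) and by a sum of at least 100 counts over the 12 libraries, so that their total counts took part in the choice. The rule found 86 genes among 22028 protein-coding genes and 55536 features in all. Of these, 75 were encoded in the nucleus and 11 in the mitochondrial genome. Complex I had 36 nuclear and 6 mitochondrial members, complex II 4 nuclear members, complex III 8 and 1, complex IV 11 and 3, and complex V 16 and 1.

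The 4 groups of 3 mice were compared 48 h after stimulation. Pdap1-deficient mice were homozygous for the floxed Pdap1F allele and control mice lacked it, all on C57BL/6, and both genotypes carried 1 Cre allele active in the B lineage. Splenocyte cultures of each mouse received either LPS with IL-4, the condition for IgG1, or LPS with BAFF and TGFβ, the condition for IgG2b. The labels also name the CH12 cell line and an mRNA kit for every sample, whereas the study's methods describe primary splenic B cells depleted of CD43+ cells and a total RNA kit after ribosomal RNA depletion. The age of the mice behind each library was not given in the sources used here.

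Oxidative phosphorylation is carried out by 5 complexes of the inner mitochondrial membrane. Complex I (NADH dehydrogenase) and complex II (succinate dehydrogenase) pass electrons to ubiquinone, complex III (the cytochrome bc1 complex) passes them to cytochrome c, complex IV (cytochrome c oxidase) passes them to oxygen, and complex V (ATP synthase) uses the resulting proton gradient to make ATP. Most subunits are made from nuclear mRNAs and imported, a few hydrophobic core subunits are made within the mitochondrion, and complex II is wholly nuclear. B cells activated with LPS grow and divide and are known to raise mitochondrial respiration. The paper detected no effect of Pdap1 loss on mitochondrial mass, either before stimulation or during culture with LPS and IL-4. It also found respiratory capacity unaltered, and measured this in unstimulated B cells. A larger share of Pdap1-deficient cells had low membrane potential early in LPS-IL-4 culture, 48 h included. The mRNA levels below do not measure respiration. The symbols do not map onto complexes without exception: Ndufa4 is now known as a complex IV subunit, Cox7a2l is an assembly factor of supercomplexes, and Ndufab1, the acyl carrier protein of complex I, was missed by the rule.

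Promoters are shown first for the called members of the LPS-IL-4 comparison described below in whose window a searched motif was found. The sequences are from RefSeq on GRCm38.p6 and run 5′ to 3′ on the gene's strand, from 250 bases before to 50 bases after the start, with motif matches in capitals.
Sdhd, chr9:50603800-50604099, minus strand: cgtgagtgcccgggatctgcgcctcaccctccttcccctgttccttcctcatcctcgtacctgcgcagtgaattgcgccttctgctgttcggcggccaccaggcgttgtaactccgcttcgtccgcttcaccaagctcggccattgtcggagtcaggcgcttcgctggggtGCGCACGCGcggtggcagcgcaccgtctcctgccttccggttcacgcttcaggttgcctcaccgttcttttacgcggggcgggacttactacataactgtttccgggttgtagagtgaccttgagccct
Atp5g3, chr2:73911277-73911576, minus strand: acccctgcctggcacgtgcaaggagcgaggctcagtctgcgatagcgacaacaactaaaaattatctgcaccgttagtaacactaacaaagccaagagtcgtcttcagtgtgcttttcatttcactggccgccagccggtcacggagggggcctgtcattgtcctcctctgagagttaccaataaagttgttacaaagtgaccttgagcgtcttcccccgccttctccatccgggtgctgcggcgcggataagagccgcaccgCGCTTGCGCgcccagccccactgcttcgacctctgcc
Uqcr11, chr10:80406772-80407071, minus strand: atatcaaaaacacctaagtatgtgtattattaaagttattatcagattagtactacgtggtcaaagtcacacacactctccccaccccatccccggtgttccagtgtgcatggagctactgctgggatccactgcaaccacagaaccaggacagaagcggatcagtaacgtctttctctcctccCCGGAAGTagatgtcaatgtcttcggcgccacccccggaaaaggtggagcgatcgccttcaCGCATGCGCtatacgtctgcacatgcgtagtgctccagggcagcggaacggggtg

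Windows were found for 60 of the 75 nuclear members, and 4 motifs were searched on both strands. The windows of members used the RefSeq start nearest the GENCODE gene start, whereas those of all genes used the first start listed. All promoters were not limited to genes expressed in these cells, so the shares below are not from matched sets. The core of the Nrf1 site (GCGCANGCG), bound by a factor known for nuclear genes of respiration, was present in 18 of the 60 windows (30%) and in 6.47% of all 27025 gene promoters of the same length. The Yy1 site AAGATGGCG was present in 6 windows (10%), against 1.49% of all promoters. The GABP (ETS) site CCGGAAGT was present in 4 (6.7%), against 4.0%. The Atf4 composite site TGATGCAA was present in 0 of the 60 and in 0.93% of all promoters. No motif overlapped another in the windows printed. Of the 7 called members with a window, Sdhd, Atp5g3 and Uqcr11 held the Nrf1 core, Uqcr11 also held the GABP letters, and Uqcrfs1, Uqcr10, Cox7b and Ndufa12 held none of the 4.

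Total counts were between 4579793 and 15869143 in 11 of the libraries and 69500640 in the LPS-BAFF-TGFβ library of control mouse 1. Levels are given below in CPM, counts scaled to the library size after TMM normalization over the 12 libraries. Pdap1 itself was between 80.3 and 199 CPM in the control libraries and between 23.0 and 29.9 in the Pdap1-deficient ones, and only its second exon is flanked by loxP sites. The 6 B cell markers were present in every library, at a sum of 2172 to 3460 CPM. Myeloid markers summed to 301 CPM in the LPS-IL-4 library and 531 CPM in the LPS-BAFF-TGFβ library of Pdap1-deficient mouse 2, to 32 and 75.1 in those of Pdap1-deficient mouse 3, and to between 5.04 and 24.2 in the other libraries.

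Of 99 protein-coding symbols that matched the rule, 13 had under 100 counts. The lowest members were mt-Nd3 with 109 counts, mt-Atp6 with 188 and Ndufa4l2 with 201, and the highest genes outside were Cox7a1 with 86 and Cox6b2 with 64. The deepest library, LPS-BAFF-TGFβ control mouse 1, weighs most in these sums. mt-Nd3, at 1.02 CPM in it, reached the limit only with that library. Most of those outside were isoforms known from heart, skeletal muscle, lung or testis. Cox4i2 had 20 counts where its counterpart Cox4i1 had 32188, Cox6a2 had 21, Cox8b had 50, and Cox7b2 and Cox8c had 0. Core subunits were also among them: Ndufs3 of complex I had 5 counts, Uqcrc1 of complex III had 14 and Atp5a1, the alpha subunit of ATP synthase, had 43. For Uqcrc1 no annotated exon overlapped and no other transcript matched 99% or more over 50 bases, so the low count was not accompanied by a copy or an overlap, and what set it was not tested.

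Per kilobase of the principal transcript, the median over the 12 libraries was highest for mt-Co1 at 5653 CPM per kb, mt-Nd1 at 1149 and mt-Cytb at 915. Among nuclear members the highest of each complex on this scale were Ndufa4 (91.1), Sdha (95.4), Uqcrh (111.9), Cox4i1 (184.8) and Atp5b, the catalytic beta subunit of ATP synthase (757). The lowest were Ndufa4l2 (1.23), Sdhc (8.69), Uqcrq (18.0), Cox5a (15.3) and Atp5s (3.44). These ranks depend on the length used, which was the longest among transcripts ranked equally as principal. Uqcrq was scaled by 1521 bases. Before scaling its median, 27.3 CPM, was above that of Uqcr11, 16.9. Of the genes for subunit c of the ATP synthase rotor, Atp5g3 was at 120.7 CPM per kb, Atp5g2 at 11.8 and Atp5g1 at 8.68. Atp5g1 was scaled by 4715 bases, Atp5g2 by 731 and Atp5g3 by 723. Before scaling the medians were 40.9 CPM for Atp5g1, 8.60 for Atp5g2 and 87.3 for Atp5g3. The order of Atp5g1 and Atp5g2 thus rested on the length used. For Atp5g2 the level is uncertain, since 88.2% of its transcript matched Gm10175 and Gm10231.

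A set of 4 mitochondrial members were far below the rest. mt-Co2 was between 1.44 and 8.32 CPM in the 12 libraries, mt-Co3 between 2.80 and 11.8, mt-Atp6 between 0.54 and 2.42 and mt-Nd3 between 0 and 1.29. Each has a near-complete nuclear copy on chromosome 1. mt-Co2 and Gm28661 shared 681 bases without a difference, mt-Co3 and Gm28437 shared 783, and mt-Atp6 and Gm10925 shared 678. mt-Nd3 and Gm28438 differed at 1 of 345 bases, which lies in the first codon and is in capitals in the 33-base starts of the transcripts (GENCODE M21), shown because so little tells these genes apart.
mt-Nd3: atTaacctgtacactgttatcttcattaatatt
Gm28438: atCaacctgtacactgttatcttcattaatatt

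In mt-Co1, by contrast, the copy Gm29216 covered 31.8% of the transcript, and mt-Co1 had 1315082 counts. In mt-Nd4 the copy Gm28439 covered 63.6%, and mt-Nd4 had 57292 counts. mt-Nd1, mt-Nd2, mt-Nd5, mt-Nd6 and mt-Cytb had no copy at this limit. The counting assigned reads to genes after mapping, so that values of mt-Co2, mt-Co3, mt-Atp6 and mt-Nd3 are uncertain, and their part in any result below was not tested.

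The first comparison asked how loss of Pdap1 changed these genes in cells stimulated with LPS-IL-4. Calls among nuclear subunit genes were all lower in Pdap1-deficient cells, and no mitochondrial gene was called. Of 85 members tested, 8 fell and 0 rose (edgeR quasi-likelihood F test, Benjamini-Hochberg adjusted p under 0.05 over all genes), where 4.92% of all genes tested were called and 2.12% were called lower. The 8 were Sdhd, Atp5g3, Cyc1, Uqcrfs1, Uqcr10, Uqcr11, Cox7b and Ndufa12, and 4 of them were among the 8 nuclear members of complex III. Each of the other complexes had 1.

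Sdhd, a membrane anchor of succinate dehydrogenase (chr9:50596357-50603812, minus strand), was 139.8, 152 and 145 CPM in the 3 control libraries and 97.6, 80.1 and 90.7 in the Pdap1-deficient ones. The groups did not overlap, and the log2 fold change was -0.71 (SE 0.11, adjusted p = 0.00806, edgeR). Atp5g3, a gene for subunit c of ATP synthase (chr2:73908447-73911326, minus strand), was 132, 129 and 157 CPM in controls and 96.0, 76.6 and 79.9 in Pdap1-deficient cells. Every Pdap1-deficient library was below every control library, with a log2 fold change of -0.74 (SE 0.13, adjusted p = 0.0124).

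Complex III showed the most calls. Cyc1, the cytochrome c1 subunit (chr15:76343523-76346260, plus strand), went from 108, 108 and 114 CPM in controls to 78.3, 62.6 and 70.4, a log2 fold change of -0.66 (SE 0.11, adjusted p = 0.0127). Uqcrfs1, the Rieske iron-sulfur protein (chr13:30540308-30545362, minus strand), went from 106, 100.3 and 105 CPM to 71.8, 61.2 and 75.4, a log2 fold change of -0.59 (SE 0.11, adjusted p = 0.0195). These 2 catalytic subunits fell by similar amounts, without overlap between groups. Uqcr10, a small accessory subunit (chr11:4701973-4704342, minus strand), was 36.8, 36.8 and 53.6 CPM in controls and 27.8, 26.7 and 21.9 in Pdap1-deficient cells, with a log2 fold change of -0.74 (SE 0.16, adjusted p = 0.0315). Uqcr11, also a small accessory subunit (chr10:80402997-80406830, minus strand), was 18.4, 20.9 and 27.2 CPM in controls and 15.6, 13.9 and 11.7 in Pdap1-deficient cells, with a log2 fold change of -0.69 (SE 0.17, adjusted p = 0.0489). Control mouse 3 was the highest library for both. Uqcrc2, a core protein of the complex, had a log2 fold change of -0.32 (SE 0.13, adjusted p = 0.168). Uqcrq was the member of complex III with the highest fold change, at 0.05 (SE 0.13, adjusted p = 0.856).

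In complex IV, Cox7b (chrX:106015700-106022450, plus strand), a small nuclear subunit, was 78.0, 81.4 and 97.5 CPM in controls and 65.4, 56.1 and 56.1 in Pdap1-deficient cells. The log2 fold change was -0.54 (SE 0.12, adjusted p = 0.0344). Cox8a had the lowest fold change of all nuclear members, -0.78 (SE 0.23), but did not pass (adjusted p = 0.0945): its controls were 46.9, 50.9 and 82.5 CPM, and its Pdap1-deficient libraries 42.5, 33.7 and 29.5. In complex I, Ndufa12 (chr10:94198720-94221443, plus strand), an accessory subunit, was 52.3, 51.7 and 49.2 CPM in controls and 39.6, 25.5 and 34.9 in Pdap1-deficient cells, with a log2 fold change of -0.63 (SE 0.16, adjusted p = 0.0489). A pseudogene, Gm15920, matched 36.2% of its transcript, so its value is less certain than the others. The other 7 called genes had neither an overlapping exon nor a matching transcript.

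**Figure D1:**
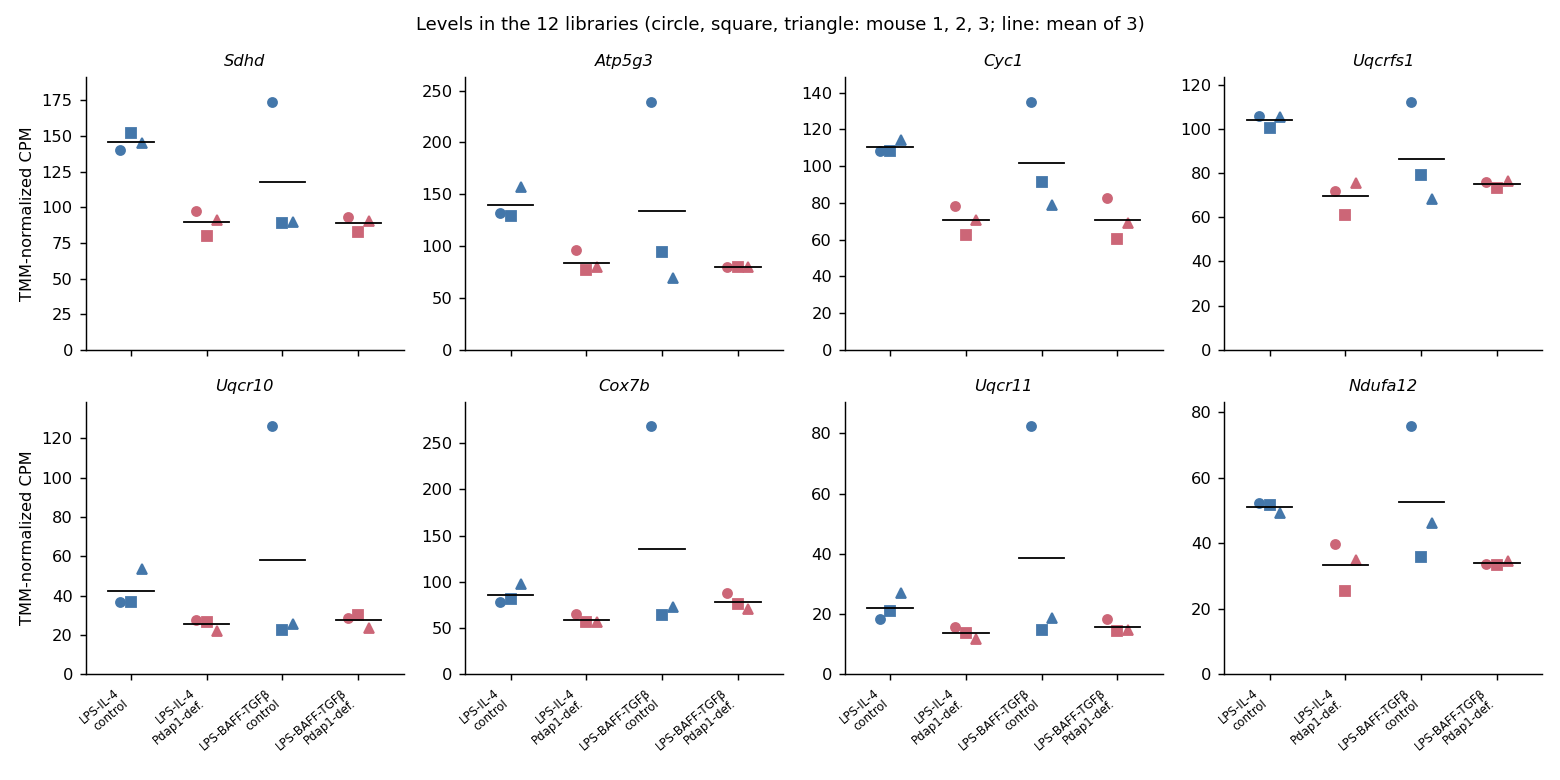
TMM-normalized CPM (vertical axes, from 0) of the 8 members called with LPS-IL-4, in the 12 libraries of the 4 groups (horizontal axis; blue, control; red, Pdap1-deficient; symbols mark mouse 1, 2 and 3 and lines the mean of 3). With LPS-IL-4 every Pdap1-deficient library lies below every control library, and with LPS-BAFF-TGFβ the library of control mouse 1 stands above the rest, for example at 268 CPM for Cox7b against 64.6 and 73.1 in the other controls.

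The shift was wider than the calls. Of 75 nuclear members, 70 had a negative log2 fold change, and in 45 of them every Pdap1-deficient library was below every control library, where 16.1% of all genes tested did not overlap in that direction. In 0 nuclear members was every Pdap1-deficient library above, and the share of all genes in that direction is not given. The median log2 fold change was -0.31 over nuclear members and 0.02 over all genes tested. By complex it was -0.28 for nuclear members of complex I, -0.32 for II, -0.51 for III, -0.31 for IV and -0.38 for V. The highest value of each complex was 0.27 for Ndufa4l2 (SE 0.39), -0.26 for Sdhb (SE 0.13), 0.05 for Uqcrq, -0.04 for Cox6c (SE 0.11) and 0.00 for Atp5s (SE 0.21), and none of these passed. Atp5b, the most abundant nuclear member, was 1628, 1622 and 1696 CPM in controls and 1415, 986 and 1276 in Pdap1-deficient cells. It did not pass in edgeR (log2 fold change -0.43, SE 0.15, adjusted p = 0.109) and passed the DESeq2 Wald test (Atp5b, -0.45, SE 0.15, adjusted p = 0.0275), which called 16 members, all lower, where 9.37% of all genes were called.

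The count of calls depended on single libraries. With any of the 3 control libraries left out, 0 members were called. The share of all genes called in those fits is not given, so a loss among members cannot be told from a loss of calls in general. Without Pdap1-deficient mouse 2, whose library had the high myeloid markers, 14 members fell and 1 rose (9.58% of all genes were called). The median of the nuclear members stayed between -0.40 and -0.25 whichever library was left out. Plasma cell markers were mixed in these libraries. Their sum was 622 to 674 CPM in controls and 747 to 892 in Pdap1-deficient cells, without overlap. Most of it was Irf4, which was higher without overlap, and Xbp1, which overlapped, as did Jchain. Prdm1, the regulator of plasma cell differentiation, rose by 1.82 on the log2 scale (SE 0.16, adjusted p = 0.000323), the only 1 of 5 markers called. Sdc1 was 6.42, 8.99 and 9.9 CPM in controls and lower, at 5.84, 3.95 and 5.29, in Pdap1-deficient cells. The paper reported no significant difference in plasmablast percentage in culture and no apparent change in plasma cell signature genes by RNA-seq. B cell markers summed to between 3093 and 3155 CPM in controls and between 3151 and 3460 in Pdap1-deficient cells. The part of these markers, and of the myeloid ones, in the result was not tested.

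**Figure D2:**
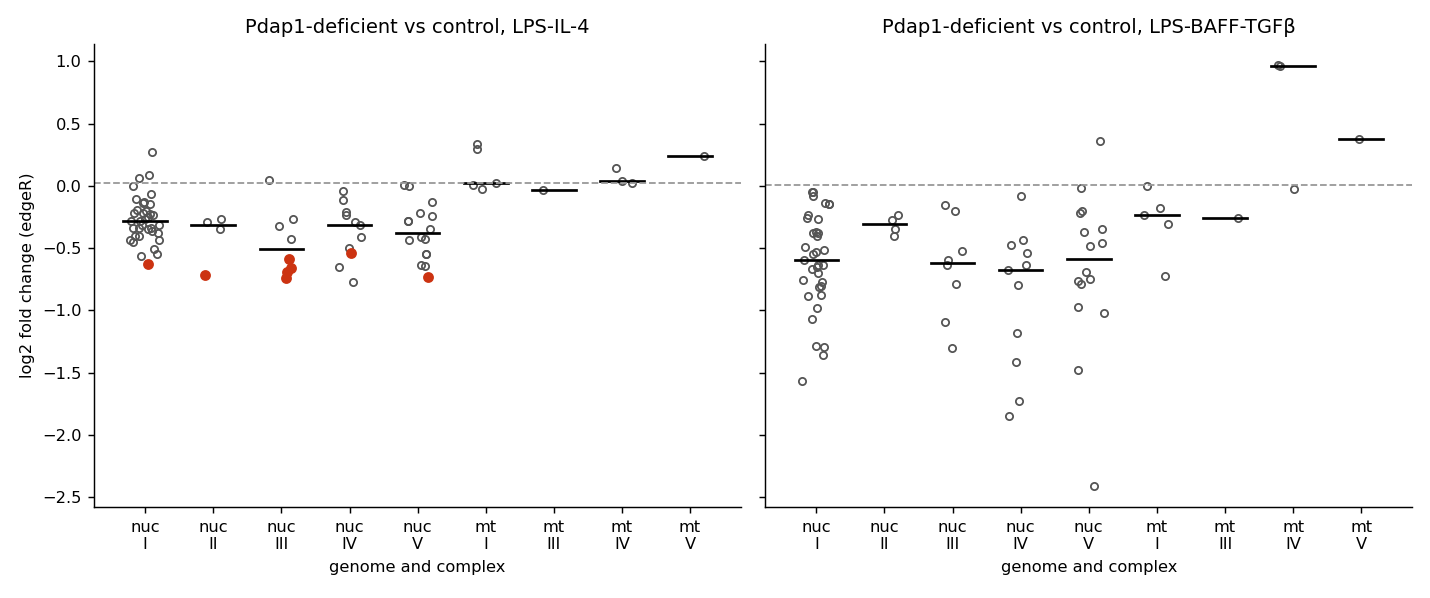
Log2 fold change (edgeR, Pdap1-deficient over control, vertical axis) of each member by genome (nuc, nuclear; mt, mitochondrial) and complex, with LPS-IL-4 on the left and LPS-BAFF-TGFβ on the right. Filled red points passed the adjusted p, open points did not, bars are medians and the dashed line is the median of all genes tested; nuclear medians with LPS-IL-4 lie between -0.51 and -0.28.

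The mitochondrial genes did not move with the nuclear ones in LPS-IL-4. Of 10 tested, 0 were called (0 at an unadjusted p under 0.05, and 0 by DESeq2), their median log2 fold change was 0.03, and 8 of the 10 were positive. mt-Co1, the catalytic core of complex IV, was 7985, 8010.5 and 7773 CPM in controls and 9050.1, 7215 and 10137 in Pdap1-deficient cells, with a log2 fold change of 0.14 (SE 0.15, adjusted p = 0.610). mt-Cytb, the cytochrome b subunit of complex III, was 1004, 890.2 and 1036 CPM in controls and 1057, 816 and 1010.2 in Pdap1-deficient cells, with a log2 fold change of -0.03 (SE 0.13, adjusted p = 0.915). The groups overlapped for both. mt-Nd1 was at -0.03 (SE 0.16) and mt-Nd2 at 0.01 (SE 0.13), and both belong to the membrane arm of complex I. mt-Nd4 was at 0.34 (SE 0.22) and mt-Nd5 at 0.29 (SE 0.24), each raised by Pdap1-deficient mouse 2, which stood at 377 and 723 CPM where the other 5 libraries were between 192 and 227 and between 357 and 421. mt-Nd6, the subunit encoded on the other strand, was at 0.02 (SE 0.29), mt-Co2 at 0.04 (SE 0.31), mt-Co3 at 0.02 (SE 0.27) and mt-Atp6 at 0.24 (SE 0.38). mt-Nd3 did not pass the filter on low counts.

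As a share of all counts, the nuclear members made up 0.60%, 0.601% and 0.652% in the control libraries and 0.540%, 0.441% and 0.502% in the Pdap1-deficient ones with LPS-IL-4. The mitochondrial members made up 1.11%, 1.07% and 1.06% in controls and 1.23%, 1.06% and 1.33% in Pdap1-deficient cells. The nuclear shares did not overlap and the mitochondrial ones did. With all genes of the mitochondrial genome counted, ribosomal RNA included, the shares ran from 1.99% to 2.34% in controls and from 2.50% to 3.26% in Pdap1-deficient cells, without overlap, and mt-Rnr1 and mt-Rnr2 alone ran from 0.916% to 1.23% and from 1.27% to 2.20%. By the study's methods ribosomal RNA was depleted before sequencing, so ribosomal counts are what remained. Whether they followed the depletion of each library was not tested. The widest 95% Wilson interval among these 12 shares ran from 1.32% to 1.33%, and covers counting error only. In bulk RNA, fewer cells with a transcript and less of it per cell cannot be told apart.

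Transcript length moved with these results. Nuclear subunit mRNAs are short, with a median principal transcript of 861 bases, and short genes were lower in Pdap1-deficient cells in general. With LPS-IL-4, the median log2 fold change of protein-coding genes outside the list was -0.33 for 125 genes under 600 bases, -0.18 for 474 genes from 600 to under 1000, -0.08 for 2244 from 1000 to under 2000, -0.01 for 4590 from 2000 to under 4000 and 0.08 for 3486 of 4000 and over. In the same bins the nuclear members were at -0.43 (17 genes), -0.33 (28 genes), -0.28 (24 genes), -0.24 (4 genes) and -0.14 (2 genes). The members were therefore lower than the other genes of their length in each bin, and part of the distance to the median of all genes was shared by other short genes. These are medians without a test, and the part of length in the result was not tested.

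**Figure D3:**
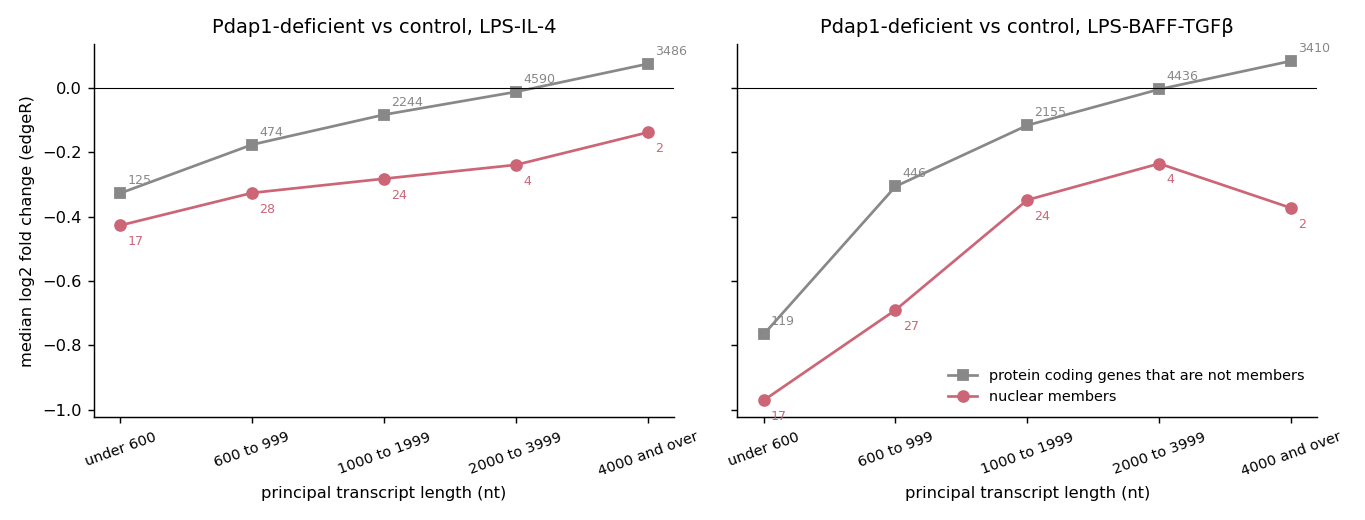
Median log2 fold change (edgeR, Pdap1-deficient over control) against principal transcript length in bases, for nuclear members (circles) and other protein-coding genes (squares), with the number of genes beside each point. Both lines rise with length in LPS-IL-4 (left), with the members below the other genes in each bin.

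The second comparison asked the same of LPS-BAFF-TGFβ cultures. Of 84 members tested, 0 were called by edgeR, where 0.462% of all genes were called (10 members had an unadjusted p under 0.05, and DESeq2 called 0). In simulated data this fit called 6% of genes changed 1.5-fold and 56.7% of those changed 2-fold, so 0 calls do not show that nothing changed. Of 74 nuclear members, 73 had a negative log2 fold change, with a median of -0.60 against 0.01 over all genes. This median rested on the library of control mouse 1, the deepest, and was -0.07 without it, with 47 of 74 negative. In 12 of the nuclear members every Pdap1-deficient library was below every control library, where 9.08% of all genes tested did so. In 1, Atp5l, every Pdap1-deficient library was above, and the share of all genes in that direction is not given.

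Control mouse 1 stood apart in this stimulation for the nuclear members. Its level was over 2 times the mean of the other 2 controls in 41 of 75 nuclear members (54.7%), in 1 of the 11 mitochondrial members and in 6.2% of all genes tested, and the median ratio was 2.23 over nuclear members and 1.02 over all genes. Atp5k, subunit e of ATP synthase, was 189 CPM in that library, 9.98 and 16.6 in the other controls, and 15.2, 15.5 and 10.6 in Pdap1-deficient cells, and had the lowest fold change (-2.41, SE 1.36, adjusted p = 0.567). Cox5a was 78.3 CPM there and between 6.21 and 11.6 in the other 5. Ndufb6 was 25.0 CPM there and between 3.30 and 4.75 in the others. mt-Co1 went the other way, at 5653 CPM in that library against 10101 and 11563 in the other controls. The excess was larger in shorter genes: the median difference on the log2 scale from the other 2 controls was 2.13 for 17 nuclear members under 600 bases, 1.34 for 27 from 600 to under 1000 bases and 0.48 for 24 from 1000 to under 2000 bases, and 1.32, 0.63 and 0.23 for all protein-coding genes tested in those bins. It was 0.19 for 4 nuclear members from 2000 to under 4000 bases and, against this order, 0.93 for the 2 of 4000 and over, where all protein-coding genes were at 0.03 and -0.08. Across 74 nuclear members Pearson's r with log2 length was -0.56, a description over genes of the same libraries. With LPS-IL-4, control mouse 3 showed a smaller difference of this kind, 0.47 under 600 bases and 0.07 from 1000 to under 2000.

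The lowest member of each complex with LPS-BAFF-TGFβ was Ndufb6 at -1.57 (SE 0.80), Sdhd at -0.40 (SE 0.26), Uqcr11 at -1.30 (SE 0.78), Cox5a at -1.85 (SE 1.11) and Atp5k. The highest of complexes II to V was Sdha at -0.23 (SE 0.12), Uqcrc2 at -0.16 (SE 0.13), Cox7a2l at -0.08 (SE 0.12) and Atp5l, subunit g of ATP synthase, at 0.36 (SE 0.15). None passed. Of the genes called with LPS-IL-4, Sdhd was 89.3 and 89.9 CPM in controls 2 and 3 and 93.4, 82.4 and 90.3 in Pdap1-deficient cells, and Uqcrfs1 was 79.0 and 68.4 in those controls and 76.0, 73.3 and 76.3 in Pdap1-deficient cells. Cyc1 was 91.6 and 79.0 CPM in those controls and 82.4, 60.1 and 69.3 in Pdap1-deficient cells. In these 3 genes the groups overlapped once control mouse 1 was set aside. Ndufa12 was 35.9 and 46.2 CPM in those controls and 33.7, 33.2 and 34.5 in Pdap1-deficient cells, without overlap.

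Among mitochondrial members mt-Co2 was 3.21, 3.53 and 2.80 CPM in controls and 7.26, 2.68 and 8.32 in Pdap1-deficient cells, with a log2 fold change of 0.97 (SE 0.38, adjusted p = 0.432). mt-Co3 was 4.55, 3.41 and 4.87 CPM in controls and 8.87, 3.92 and 11.8 in Pdap1-deficient cells, with a log2 fold change of 0.96 (SE 0.36, adjusted p = 0.415). In both, Pdap1-deficient mouse 2 was at the control level, and both are among the genes with a full nuclear copy. mt-Nd1 was at -0.31 (SE 0.16), mt-Nd2 at -0.23 (SE 0.29), mt-Nd4 at -0.18 (SE 0.33), mt-Nd5 at -0.00 (SE 0.40), mt-Nd6 at -0.72 (SE 1.15), mt-Cytb at -0.25 (SE 0.17), mt-Co1 at -0.02 (SE 0.24) and mt-Atp6 at 0.38 (SE 0.47). The mitochondrial share of counts was 1.0%, 1.40% and 1.61% in controls and 1.27%, 1.24% and 1.26% in Pdap1-deficient cells, and the nuclear share was 0.869%, 0.587% and 0.598% in controls and 0.502%, 0.515% and 0.547% in Pdap1-deficient cells.

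**Figure D4:**
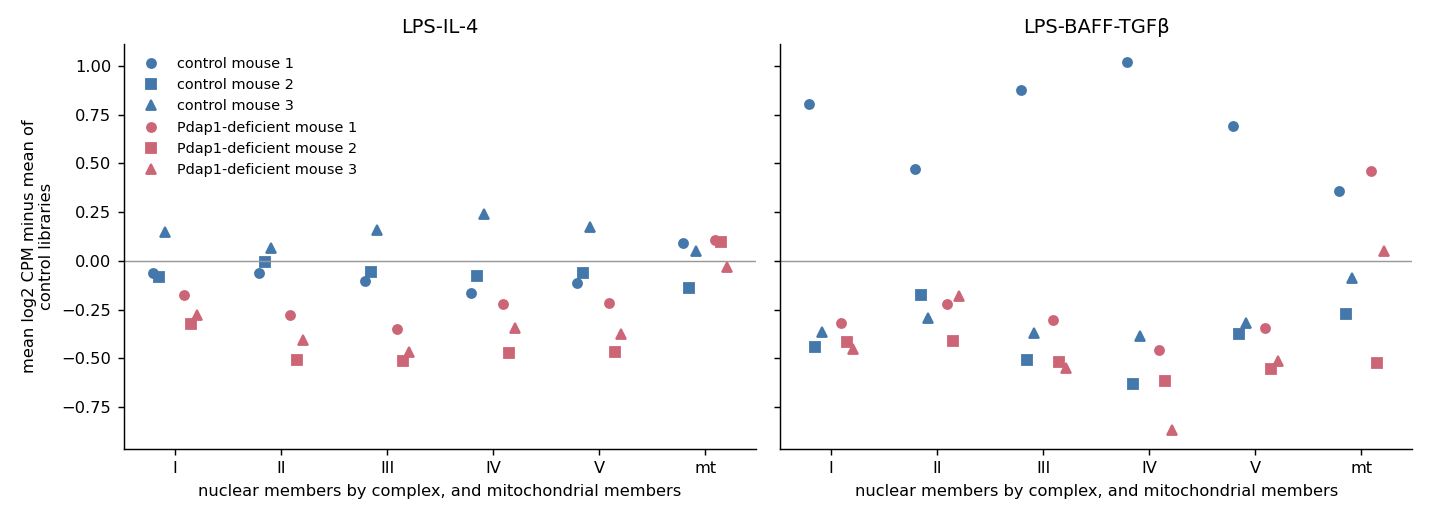
Mean log2 CPM of the nuclear members of complexes I to V and of all mitochondrial members (mt) in each library, minus the mean of the 3 control libraries of the same stimulation (vertical axis). With LPS-IL-4 the 3 Pdap1-deficient libraries are below the 3 controls for each nuclear complex, and with LPS-BAFF-TGFβ control mouse 1 is at 0.47 to 1.02 for the nuclear complexes while the other 5 libraries are below 0.

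Whether the effect of Pdap1 loss differed between the cultures was tested with an interaction term in a fit of all 12 libraries. It was called for 0 of 85 members, where 0.0% of all genes were called (2 members had an unadjusted p under 0.05, and DESeq2 called 0). In simulated data this fit called 4.5% of genes with a 1.5-fold difference and 20.9% of those with a 2-fold difference. The median of the nuclear members was -0.25 (-0.04 over all genes), and 0.25 without the LPS-BAFF-TGFβ library of control mouse 1, so its sign rested on that library. The lowest of each complex was Atp5k at -1.80 (SE 1.40), Cox5a at -1.64 (SE 1.18), Ndufb6 at -1.15 (SE 0.84), Uqcrq at -0.86 (SE 0.72) and Sdhb at -0.10 (SE 0.22), and the highest was Atp5l at 0.48 (SE 0.19), Ndufa4l2 at 0.41 (SE 0.76), Uqcrfs1 at 0.37 (SE 0.21), Sdhd at 0.29 (SE 0.30) and Cox7a2l at 0.02 (SE 0.15).

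The stimulations were then compared within each genotype. In control cells mitochondrial genes included 3 that were called higher in LPS-BAFF-TGFβ cultures, and the direction of the nuclear genes depended on mouse 1. Of 85 members, mt-Nd1, mt-Nd2, mt-Cytb and Ndufv2 rose and Atp5l fell, where 19.3% of all genes tested were called, a larger share than among the members. mt-Nd2 was 285, 235 and 310.1 CPM with LPS-IL-4 and 538, 418 and 408 with LPS-BAFF-TGFβ, without overlap (log2 fold change, LPS-BAFF-TGFβ over LPS-IL-4, 0.72, SE 0.14, adjusted p = 0.00901). mt-Cytb was 1004, 890.2 and 1036 CPM with LPS-IL-4 and 1562, 1247 and 1588 with LPS-BAFF-TGFβ (0.59, SE 0.12, adjusted p = 0.00977). mt-Nd1 was 1090.2, 942 and 998 CPM with LPS-IL-4 and 1571, 1184 and 1399.7 with LPS-BAFF-TGFβ (0.46, SE 0.12, adjusted p = 0.0304). All 10 mitochondrial members tested had a positive log2 fold change, with a median of 0.59. Ndufv2, an iron-sulfur subunit of the NADH-oxidising arm of complex I, was 74.5, 74.6 and 74.7 CPM with LPS-IL-4 and 112, 92.9 and 96.3 with LPS-BAFF-TGFβ (0.43, SE 0.09, adjusted p = 0.0134). Atp5l was 21.1, 21.4 and 18.5 CPM with LPS-IL-4 and 13.7, 14.8 and 15.8 with LPS-BAFF-TGFβ (-0.46, SE 0.13, adjusted p = 0.0432), and 72.2% of its transcript matched other genes. With the mouse as a block the 4 genes that rose were called and Atp5l was not, where 13.4% of all genes were called.

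The median of nuclear members in this comparison was 0.42, and -0.15 without the LPS-BAFF-TGFβ library of control mouse 1. Without it 9 members rose and 15 fell, where 31.8% of all genes were called, a share close to that of the members. Those that fell were all nuclear and included Sdhd (-0.69, SE 0.08), Atp5g3 (-0.76, SE 0.14), Uqcr10 (-0.82, SE 0.17), Uqcrfs1 (-0.49, SE 0.09) and Cyc1 (-0.36, SE 0.08), and those that rose included mt-Co1 (0.46, SE 0.07), mt-Nd5 (0.41, SE 0.09), mt-Nd1, mt-Nd2 and mt-Cytb. These genes were named after their values were seen, and the LPS-IL-4 control libraries are shared with the first comparison. Mouse by mouse, the nuclear members differed between stimulations by 1.13 on average on the log2 scale in control mouse 1, and by -0.14 and -0.28 in control mice 2 and 3. The mitochondrial members differed by 0.85, 0.45 and 0.45. In the comparison of 3 against 3, the highest nuclear value of each complex was Atp5k at 2.08 (SE 1.22), Cox5a at 1.52 (SE 1.02), Ndufb9 at 1.51 (SE 0.75), Uqcrq at 0.86 (SE 0.65) and Sdha at 0.32 (SE 0.10). The lowest of each complex besides Atp5l was Ndufa4l2 at -0.55 (SE 0.55), Sdhd at -0.30 (SE 0.26), Uqcrfs1 at -0.26 (SE 0.17) and Cox7c at 0.05 (SE 0.22), and none of these passed.

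In Pdap1-deficient cells the nuclear members differed little between stimulations, with a median of 0.11 and mean differences of 0.11, 0.16 and 0.05 in the 3 mice. The mitochondrial members differed by 0.94, -0.04 and 0.66. Without the members that have a full nuclear copy the differences were 0.93, 0.03 and 0.14, so the value of mouse 3 rested mostly on those uncertain genes. Of 84 members, Sdha and mt-Co2 rose and 0 fell, where 11.5% of all genes were called. Sdha, the flavoprotein of succinate dehydrogenase, was 229, 211 and 233 CPM with LPS-IL-4 and 282, 276 and 306 with LPS-BAFF-TGFβ (0.36, SE 0.10, adjusted p = 0.0414). mt-Co2 was 2.72, 2.19 and 2.01 CPM with LPS-IL-4 and 7.26, 2.68 and 8.32 with LPS-BAFF-TGFβ (1.42, SE 0.39, adjusted p = 0.0449), with the limit on its counts given above. With the mouse as a block 13 members rose and 0 fell, where 26.4% of all genes were called. They were led by Sdha (0.36, SE 0.06, adjusted p = 0.000368), Cox7b (0.39, SE 0.08, adjusted p = 0.00153), Atp5g1 (0.46, SE 0.10, adjusted p = 0.00201), mt-Co3 (1.02, SE 0.23, adjusted p = 0.00326), Cox7a2l (0.32, SE 0.07, adjusted p = 0.00354) and mt-Co2. In both fits the share of members called was below that of all genes. Without the block, the highest of complexes I and V were Ndufb9 at 0.48 (SE 0.19) and Atp5g1 at 0.45 (SE 0.14), the lowest of complex IV was Cox7c at -0.40 (SE 0.22), and none of these passed.

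**Figure D5:**
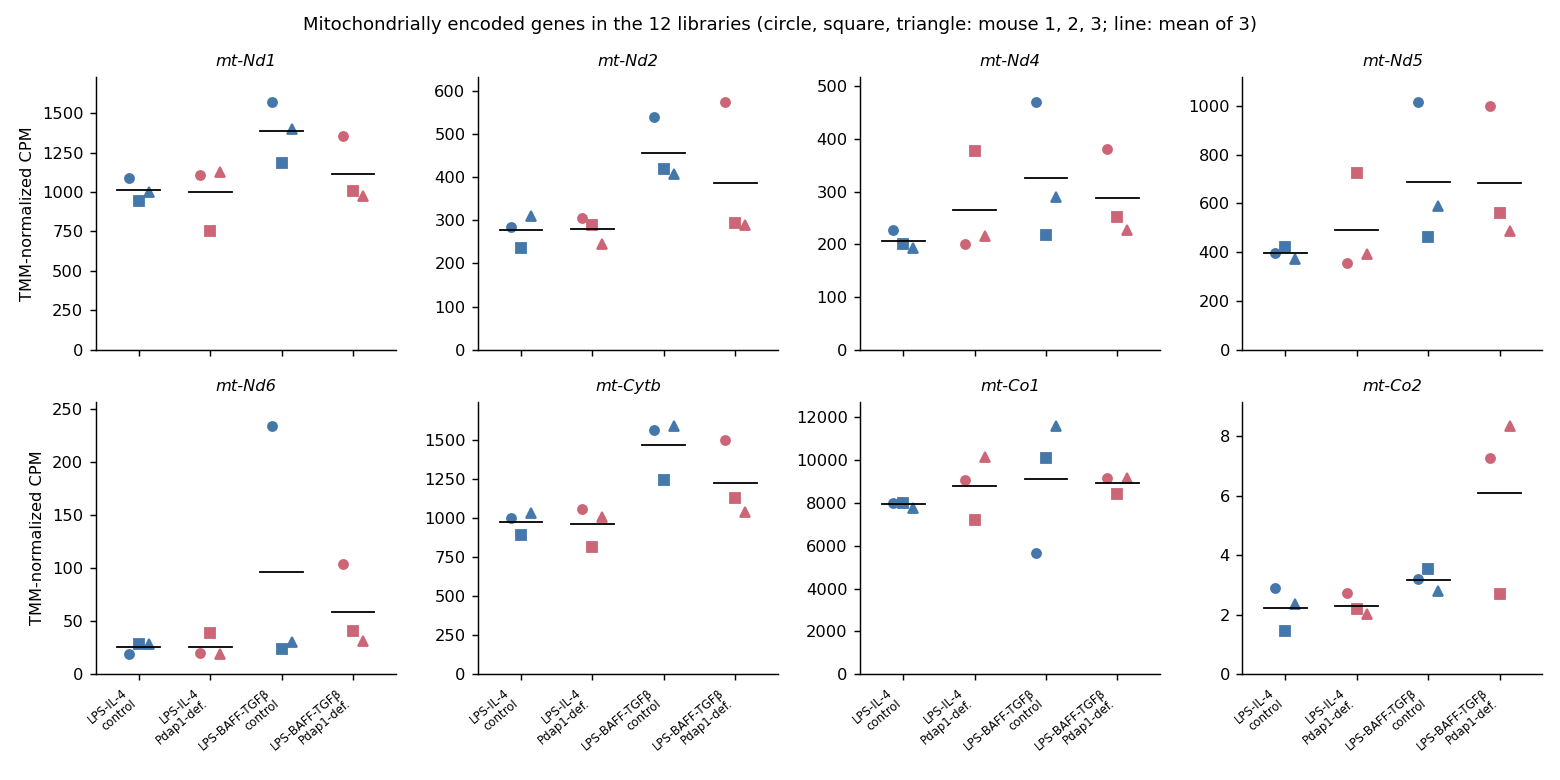
TMM-normalized CPM (vertical axes, from 0) of 8 mitochondrially encoded members in the 12 libraries (blue, control; red, Pdap1-deficient; symbols mark mouse 1, 2 and 3 and lines the mean of 3). mt-Nd1, mt-Nd2 and mt-Cytb are higher with LPS-BAFF-TGFβ in each control mouse, mt-Nd6 stands at 234 CPM in control mouse 1 against 23.8 and 30.4 in the other controls, and mt-Co2 is below 9 CPM in each library.

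The mitochondrial genes also varied among themselves by mouse. mt-Nd6 was 234 CPM in control mouse 1 and 104 in Pdap1-deficient mouse 1 with LPS-BAFF-TGFβ, and between 19.4 and 40.5 in the other 10 libraries. mt-Nd5 was over 1000 CPM in those same libraries, 723 in Pdap1-deficient mouse 2 with LPS-IL-4 and between 357 and 588 in the others. mt-Co1 did not rise with them.

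Other genes of the pathway were described from lists that did not overlap the members. Of all genes tested for genotype with LPS-IL-4, 4.92% were called and 2.12% were called lower. With LPS-IL-4, 0 of 47 assembly factors tested were called, with a median log2 fold change of -0.21, and 0 of 18 tricarboxylic acid cycle genes, 17 of which were negative, with a median of -0.27. Of 31 genes of mitochondrial DNA transcription, replication and RNA handling, 3 fell and 0 rose: Twnk, the mitochondrial DNA helicase, was 42.7, 45.9 and 44.8 CPM in controls and 32.4, 30.5 and 32.6 in Pdap1-deficient cells (-0.49, SE 0.10, adjusted p = 0.0278), Elac2, which cleaves tRNAs from mitochondrial transcripts, was at -0.58 (SE 0.13, adjusted p = 0.0384), and Lonp1, a matrix protease, at -0.40 (SE 0.10, adjusted p = 0.0481). Of 8 carriers tested, Slc25a3, which brings phosphate to ATP synthase, fell from 406, 404 and 431 CPM to 325, 254 and 298 (-0.51, SE 0.12, adjusted p = 0.0394). Slc25a24, an ATP-Mg carrier, rose from 3.21, 3.6 and 3.5 CPM to 8.40, 8.94 and 8.25 (1.30, SE 0.18, adjusted p = 0.00536). Of 20 electron carrier and coenzyme Q genes and 13 regulators, 0 were called, with medians of -0.10 and -0.15. Ndufab1 was at -0.17 (SE 0.11), Nrf1 at -0.10 (SE 0.10), Gabpa at -0.17 (SE 0.14) and Tfam, which packages and transcribes mitochondrial DNA, at -0.22 (SE 0.12). With LPS-BAFF-TGFβ 0 genes of these lists were called, where 0.462% of all genes tested were called.

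Between stimulations, the lists held few calls. Of all genes tested, 19.3% were called in control cells and 11.5% in Pdap1-deficient cells. In each of these lists the share called was below that of all genes, so the calls do not set the lists apart. In control cells 1 assembly factor rose and 5 fell, led by Sco1, a copper chaperone of complex IV (-1.03, SE 0.11, adjusted p = 0.000445), Coa5 (-0.52, SE 0.10) and Cox18 (-0.60, SE 0.15), and Ndufaf3 rose (0.72, SE 0.20). Sco1 also fell in Pdap1-deficient cells (-1.17, SE 0.21, adjusted p = 0.00625). Dlst, of the 2-oxoglutarate dehydrogenase complex, fell in both genotypes (-0.47, SE 0.08, and -0.44, SE 0.10), and Gpd2, the mitochondrial glycerol 3-phosphate dehydrogenase, rose in both (0.52, SE 0.15, and 0.49, SE 0.10). Pdha1 and Coq10b rose in Pdap1-deficient cells (0.43, SE 0.11, and 0.53, SE 0.13), as did Creb1 (0.43, SE 0.11). In control cells Etfdh rose (0.48, SE 0.10), Myc fell (-0.46, SE 0.10), Fastkd3 and Elac2 fell (-0.60, SE 0.12, and -0.32, SE 0.08), and Rexo2 and Slc25a24 rose (0.45, SE 0.09, and 0.83, SE 0.23).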

How the data were processed

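RNA-seq was analysed from 12 libraries, 3 mice in each of 4 groups. Per the labels and the study's methods, reads were trimmed with Trim Galore 0.6.1, mapped to GRCm38 with STAR 2.6 and counted per Ensembl gene with HTSeq 0.9.1. The raw counts deposited by the authors, without normalization, were used here. The normalized table was not used. The strandedness of counting and the annotation release were not given in the sources used here, so overlapping genes on opposite strands may not be told apart. Symbols, positions and transcripts were from GENCODE M21, and promoters from RefSeq (GRCm38.p6). Groups came from the sample titles.

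The members and the gene lists were chosen with earlier results of these data known. Each comparison was fitted over all genes with edgeR 4.0.16 (R 4.3.3): filterByExpr, TMM, robust quasi-likelihood F test and Benjamini-Hochberg adjusted p under 0.05. Only the libraries compared entered a fit, and all 12 entered the genotype by stimulation term. DESeq2 1.42.0 (Wald test), other filters and scalings, thinning, a replicate block and leaving out each library were alternatives. The scripts were tested on simulated data. For genotype with LPS-IL-4 they called 31.3% of genes changed 1.5-fold and 71.6% of those changed 2-fold. Smaller changes were thus mostly missed, and a gene that was not called may still have changed. Adjusted p-values in the text are from edgeR unless DESeq2 is named. Standard errors are from the moderated F statistic. List means by mouse used log2 CPM with a prior count of 2. The range of depth is given in the report. The spread between mice, a median biological coefficient of variation of 17.2% in the LPS-IL-4 fit of genotype and 20.9% in the LPS-BAFF-TGFβ one, limited the precision. Within each group no library was a copy of another: the mean chi-square per gene between mice of a group was at least 7.07. This measure is not given for libraries of different groups.

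Members were named where they were mitochondrial, called (up to 6 a direction by p), the highest or lowest of their complex by fold change or level per kb, isoform counterparts, or next to the limit of 100 counts. Genes of the other lists were named where called, up to 3 a list and direction. Cultures with the same number and genotype came from the same mouse by the series' description, which pairs the stimulations. Deviations from the group mean correlated at 0.58, 0.62 and 0.29 in Pdap1-deficient mice and at -0.18, 0.34 and -0.02 in control mice. Between different numbers they ran from -0.575 to 0.011 in Pdap1-deficient mice and from -0.407 to 0.365 in control mice. In control mice the pairing thus rests on the description and is not borne out by these values. The full allele name of the Cre driver and 1 complex I member are not reported here.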

Additional observations from a re-analysis of the deposited data

How the results depend on the processing

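With LPS-IL-4, the 8 members called became 16 with DESeq2, 23 without the filter on low counts and 1 in a fit of all 12 libraries, and 0 to 17 when libraries were left out (0 without any of control mice 1, 2 or 3, 17 without Pdap1-deficient mouse 1, 15 without mouse 2 and 2 without mouse 3). With LPS-BAFF-TGFβ, 2 members were called without the filter and 0 to 0 with a library left out, and the nuclear median ran from -0.783 to -0.066, the last without control mouse 1. In the stimulation comparison of control cells, 2 members were called without mitochondrially encoded genes and 1 to 24 with a library left out, and the nuclear median ran from -0.15 to 0.54. In Pdap1-deficient cells, 13 were called with the replicate block, 1 without mitochondrially encoded genes and 0 after thinning to the smallest library, and 0 to 2 with a library left out. Removing the mitochondrially encoded genes leaves only nuclear members to call. Otherwise the cause was not tested. With LPS-IL-4, 9.37% of all genes were called with DESeq2 and 9.58% without Pdap1-deficient mouse 2. Between stimulations, 31.8% were called in control cells without the LPS-BAFF-TGFβ library of control mouse 1. In Pdap1-deficient cells 26.4% were called with the replicate block. For the other settings this share is not given, so a change among members cannot be told from a change in calls in general. The mitochondrially encoded share, 1.08%, 1.21%, 1.34% and 1.26% of counts in the order LPS-IL-4 control, LPS-IL-4 Pdap1-deficient, LPS-BAFF-TGFβ control and LPS-BAFF-TGFβ Pdap1-deficient, became 2.19%, 2.90%, 3.16% and 3.35% with ribosomal and transfer RNA genes of the mitochondrion counted, and 1.19% and 1.40% of protein-coding counts in the first and last. Another 169 recomputed values kept their side of the threshold, stayed within 1.5 times as counts or moved by less than the spread between mice. Among these the mitochondrial median of genotype with LPS-BAFF-TGFβ turned from -0.10 to 0.28 without control mouse 1, and that of stimulation in Pdap1-deficient cells went from 0.46 to 0.11 without the LPS-BAFF-TGFβ library of mouse 1.

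Control and Pdap1-deficient mice shared only a number, so a replicate block between genotypes was an alternative without a pairing: it called 7 members in the former stimulation and 0 in the latter, and correlations of same-numbered mice ran from -0.21 to 0.10. With the mouse as a block, the interaction was called for 0 members, and apart from Atp5l and the 13 members above no call changed between stimulations. Leaving out the 4 mitochondrial members with a full nuclear copy, an alternative chosen after seeing the data, kept each mitochondrial median within the spread between mice. The mean difference between stimulations in Pdap1-deficient mouse 3, however, went from 0.66 to 0.14. Low counts limit mt-Nd3, mt-Atp6, mt-Co2 and mt-Co3, and depth was lowest, 4579793 counts, in the LPS-BAFF-TGFβ library of Pdap1-deficient mouse 2.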
